A study of Mus musculus with 4 samples.

Results

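The insulin-like growth factor (IGF) system was followed in hearts with and without cardiomyocyte PIMT, through 10 genes found by symbol among the 23337 gene symbols of each library. They were the ligands *Igf1* and *Igf2*, the receptors *Igf1r* and *Igf2r*, the binding proteins *Igfbp3*, *Igfbp4*, *Igfbp5*, *Igfbp6* and *Igfbp7*, and *Igf2bp3*, which encodes a protein that binds *Igf2* mRNA. The first 9 were taken as members of the family. *Igf2bp3* was chosen by its measured values: its 2-month ratio of csPIMT-/- over control was the lowest among 10105 genes with at least 100 reads in a 2-month library whose ratios at 2 and 6 months lay on the same side of 1, so that ratio is a description and is not tested here. The next gene in that order was *Cngb3*, which had a ratio of 0.0252 from 4 reads against 226 in the control, against 1 and 116 reads and a ratio of 0.0123 for *Igf2bp3*.

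There were 4 RNA-seq libraries, each made from pooled heart RNA of 5 C57BL6/J mice of both sexes, and 1 library per group. The controls were PIMT fl/fl mice, which carry loxP sites around exons 3 and 4 of the PIMT gene and no Cre, at 2 and 6 months of age. Age-matched csPIMT-/- animals carried the same floxed alleles and a Cre recombinase under the α-myosin heavy chain promoter, which is active in cardiomyocytes from late gestation on. None of these 4 libraries came from mice with Cre and unfloxed PIMT, so the presence of Cre and the loss of PIMT cannot be told apart. Pooling leaves no measure of the spread between mice.

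IGF1 and IGF2 are secreted peptides that signal growth and survival through the receptor tyrosine kinase IGF1R, which acts through the phosphatidylinositol 3-kinase (PI3K) and Ras pathways. IGF2R binds IGF2 and carries it to lysosomes, and the binding proteins hold the ligands in the extracellular space and either prolong or block their action. In the heart IGF1 signalling is known for physiological growth of cardiomyocytes, whereas *Igf2* and *Igf2bp3* belong to the fetal program that is switched off after birth.

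The libraries held 29823073 to 40705783 reads on genes, and the targeted gene, listed as *Tgs1*, went with the labels. Its reads numbered 670 at 2 and 928 at 6 months in PIMT fl/fl hearts, against 130 and 156 without PIMT, a log2 difference of -2.09 (SE 0.31, limma adjusted p = 0.018). This difference was -0.86 (limma adjusted p = 0.17) once the dependence on GC content was subtracted, and its adjusted p was 0.067 without the 6-month control. Gene positions are from GENCODE M21 on GRCm38. Levels below are the deposited normalized counts, that is, reads divided by a factor for the size of each library. The 95% intervals of ratios are exact Clopper-Pearson intervals from the reads and cover counting error only. Genotype was tested across the ages with limma on log2 normalized counts with age in the model, and p-values were adjusted by Benjamini-Hochberg over all 14847 genes tested. This fit has 1 residual degree of freedom. Of all genes, 17.5% fell and 11.0% rose with the loss of PIMT at an adjusted p below 0.05, and none was at that threshold when the variance was fitted without a mean trend or when the dependence on GC content was subtracted (5965 and 3829 genes had an unadjusted p below 0.05), whereas edgeR's quasi-likelihood test of the recovered reads called 2521 lower and 1637 higher.

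Both ligands fell and 3 of the 5 binding proteins rose in the limma fit, but with the GC dependence of all genes subtracted none of them passed and *Igf1* had a log2 difference of 0.14. Among the 9 genes other than *Igf2bp3*, 2, *Igf1* and *Igf2*, were lower (17.5% of all genes) and 3, *Igfbp3*, *Igfbp4* and *Igfbp6*, higher (11.0%) in csPIMT-/- hearts at an adjusted p below 0.05, while *Igf1r*, *Igf2r*, *Igfbp5* and *Igfbp7* did not pass. Both csPIMT-/- libraries lay above both controls for 5 of these 9 genes (35.2% of all genes tested) and below both for 2 (35.9%), while *Igf2r* and *Igfbp5* overlapped. At 2 months 2 of the 9 genes were more than 2-fold lower (22.5% of all 15152 genes compared) and 2 more than 2-fold higher (17.3%). At 6 months 1 was more than 2-fold lower (24.9% of 15218 genes) and 5 more than 2-fold higher (16.9%). Between ages, 1 of the 9 genes, *Igf2*, was more than 2-fold lower in controls at 6 months (4.65% of all genes) and none more than 2-fold higher (9.01%). In csPIMT-/- hearts none of the 9 was more than 2-fold lower at 6 months (8.2%) and 1, *Igf1r*, more than 2-fold higher (9.71%). *Igf2bp3* is left out of these counts, since its reads in the 2-month libraries chose it. The shares among these few genes are counts of single genes and were not tested against the rest.

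**Figure D1:**
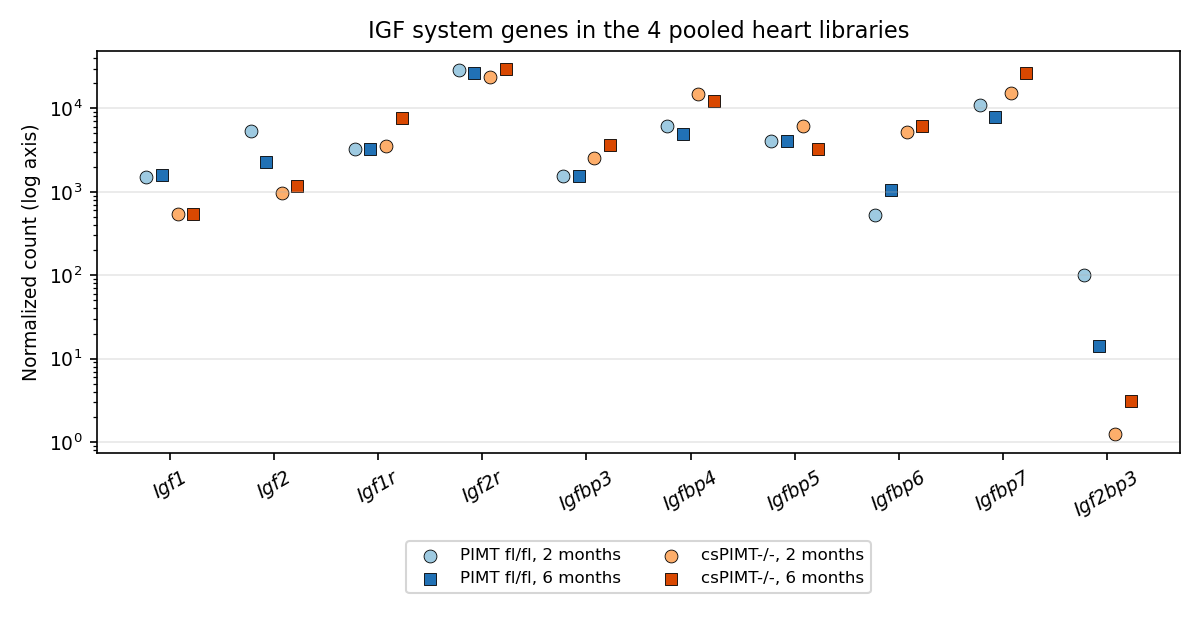
Normalized count (log axis) of the 10 genes of the IGF system in the 4 pooled libraries; each point is 1 library, circles are 2 months and squares 6 months, blue is PIMT fl/fl and orange csPIMT-/-. The orange points of *Igfbp6* lie at 5218 and 6215, above the blue points at 530 and 1054, and those of *Igf1* lie at 544 and 545, below 1510 and 1569.

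Promoter windows were read for all 10 genes, as 250 bases before each RefSeq start (GRCm38.p6). The windows of *Igf1* and of the 3 binding protein genes that rose are printed here because these genes passed the test. *Igf2* has 4 listed starts that gene counts cannot tell apart. The window of *Igf1* lies inside the gene as placed by GENCODE (87858265 to 87937042). It thus precedes a start within the gene and not the first base of the gene. Capitals mark a match on either strand to 1 of 3 motifs. The letters searched were TATAAA for the first, here called the TATA element. Those of the second, the GC element, were GGGCGG. The last was CCAAT, the best known promoter pentamer.
Igf1, chr10:87860861-87861110, plus strand: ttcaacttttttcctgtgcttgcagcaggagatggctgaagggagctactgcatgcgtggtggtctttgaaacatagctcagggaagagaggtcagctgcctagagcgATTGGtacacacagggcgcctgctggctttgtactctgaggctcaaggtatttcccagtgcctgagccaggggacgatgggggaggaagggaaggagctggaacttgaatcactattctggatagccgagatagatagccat
Igfbp6, chr15:102143936-102144185, plus strand: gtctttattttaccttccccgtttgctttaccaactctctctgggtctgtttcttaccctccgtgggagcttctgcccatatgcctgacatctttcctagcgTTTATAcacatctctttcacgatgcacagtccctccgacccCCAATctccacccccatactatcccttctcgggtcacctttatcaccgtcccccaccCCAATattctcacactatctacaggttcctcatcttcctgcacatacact
Igfbp4, chr11:99040994-99041243, plus strand: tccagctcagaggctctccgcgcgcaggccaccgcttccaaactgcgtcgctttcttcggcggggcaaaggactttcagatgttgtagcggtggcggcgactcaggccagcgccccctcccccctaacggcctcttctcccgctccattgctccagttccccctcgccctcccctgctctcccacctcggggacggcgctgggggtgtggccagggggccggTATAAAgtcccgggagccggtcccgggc
Igfbp3, chr11:7213924-7214173, minus strand: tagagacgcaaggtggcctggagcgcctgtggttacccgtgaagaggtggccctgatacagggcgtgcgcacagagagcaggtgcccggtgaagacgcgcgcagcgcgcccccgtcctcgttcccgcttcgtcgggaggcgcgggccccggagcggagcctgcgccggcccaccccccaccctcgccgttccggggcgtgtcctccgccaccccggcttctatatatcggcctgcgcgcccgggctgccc

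The window of *Igfbp6* held 1 TATA element and 2 matches to the pentamer, that of *Igfbp4* 1 TATA element, that of *Igf1* 1 pentamer, and that of *Igfbp3* none of the 3 motifs. Over all 32851 windows 12.4% held a TATA element, 32.7% a GC element and 33.9% the pentamer. Promoter GC content did not follow transcript GC content in this group: the window of *Igfbp6* was 49.6% GC with 7 CpG sites, close to that of *Igf1* at 52.8% with 5, whereas those of *Igfbp4* and *Igfbp3* were 69.2% and 73.2% with 22 and 32 (medians over all windows 52.4% and 6). A match to a motif is a description of the letters and no evidence of a site.

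*Igf1* (chromosome 10, 87858265 to 87937042, plus strand), the ligand that circulates from the liver and is also made within the heart, had normalized counts of 1510 and 1569 in control hearts of 2 and 6 months and of 544 and 545 in csPIMT-/- hearts. Both csPIMT-/- libraries lay below both controls and neither genotype differed between ages beyond counting error. The ratio was 0.36 (95% interval 0.324 to 0.4) at 2 months and 0.347 (0.315 to 0.383) at 6 months. Over both ages the log2 difference was -1.498 (SE 0.23, limma adjusted p = 0.019). This fall was not seen once GC content was taken into account. The transcript of *Igf1* is poor in GC, at 37.96%, which 2.11% of the tested genes do not exceed, and with the trend of all genes subtracted the ratios were 1.11 and 1.12 and the log2 difference 0.14 (limma adjusted p = 0.71). Without the 6-month control the adjusted p was 0.062.

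*Igf2* (chromosome 7, 142650766 to 142666816, minus strand), the imprinted fetal growth factor, had normalized counts of 5401 and 2261 in control and 974 and 1158 in csPIMT-/- hearts. Both csPIMT-/- libraries were below both controls, but the control level itself was lower at 6 months, at 0.419 of its 2-month value (95% interval 0.4 to 0.438). The ratio of csPIMT-/- over control was therefore 0.18 (0.167 to 0.194) at 2 months and 0.512 (0.477 to 0.55) at 6 months. Against the other control it was 0.431 for the 2-month and 0.214 for the 6-month csPIMT-/- library. The log2 difference over both ages was -1.72 (SE 0.40, limma adjusted p = 0.035). The transcript is GC-rich (55.8%), and subtraction of the GC trend made the difference larger, -2.33, with a limma adjusted p of 0.095. No gene reached a smaller adjusted p in that fit, but others shared this value, among them *Igfbp6* and *Mmp3*. Unadjusted, the limma p in that fit was 8.44e-04 for *Igfbp6* and 0.003455 for *Igf2*. The adjusted p was 0.086 without the 2-month control, 0.099 without the 2-month csPIMT-/- library and 0.076 without the 6-month csPIMT-/- library, and 0.026 without the 6-month control. *Igf2* overlaps the antisense gene *Igf2os* in exons, and the strand setting of the authors' read counting is not given in the sources used here, so reads of the pair cannot be told apart. The antisense gene had few reads, 31 and 14 in control and 1 and 4 in csPIMT-/- hearts.

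Fibroblasts are known to make much of the IGF and binding protein RNA of a heart, and in whole-heart RNA a change in the number of such cells and a change in the RNA of each cell cannot be told apart. The summed normalized count of 10 fibroblast markers was 297504 and 160662 in control hearts of 2 and 6 months and 220800 and 221660 in csPIMT-/- hearts. In that list 1 gene passed the test in each direction, *Lum* lower (17.5% of all genes) and *Fbln1* higher (11.0%). With the GC trend subtracted their log2 differences went from -0.91 and 1.86 to 0.32 and 1.31 (limma adjusted p = 0.39 and 0.13). The control sum was lower at 6 months, as the level of *Igf2* was, and the part of this in the result for *Igf2* was not tested.

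Of the receptors, *Igf1r* (chromosome 7, 67952827 to 68233668, plus strand), through which both ligands signal, had normalized counts of 3272 and 3292 in control and 3554 and 7633 in csPIMT-/- hearts. The 2 controls did not differ beyond counting error, the 2-month csPIMT-/- library was slightly higher, and the 6-month csPIMT-/- library stood apart. The ratio was 1.09 (95% interval 1.03 to 1.14) at 2 months and 2.32 (2.23 to 2.41) at 6 months. The additive effect over both ages was 0.67 (SE 0.31, limma adjusted p = 0.16). It was 1.22 without the 2-month csPIMT-/- library and 0.12 without the 6-month csPIMT-/- library. Leaving out the 2-month or the 6-month control gave 0.66 and 0.67. A difference between the ages cannot be tested with 1 library per group.

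*Igf2r* (chromosome 17, 12682406 to 12769664, minus strand), the clearance receptor for IGF2, was the most abundant of the 10 genes by normalized count, with 29008 and 26610 in control and 23954 and 29640 in csPIMT-/- hearts. Control and csPIMT-/- libraries overlapped. The ratio was 0.826 (95% interval 0.811 to 0.841) at 2 months and 1.11 (1.1 to 1.13) at 6 months, and the log2 difference over both ages was -0.06 (SE 0.24, limma adjusted p = 0.86). *Airn*, the imprinted non-coding RNA that is transcribed antisense from within *Igf2r* and silences its paternal copy in many tissues, went another way. It had 675 and 790 reads in control and 99 and 255 in csPIMT-/- hearts, and fell by 1.82 on the log2 scale (SE 0.35, limma adjusted p = 0.026). After subtraction of the GC trend its adjusted p was 0.13.

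**Figure D2:**
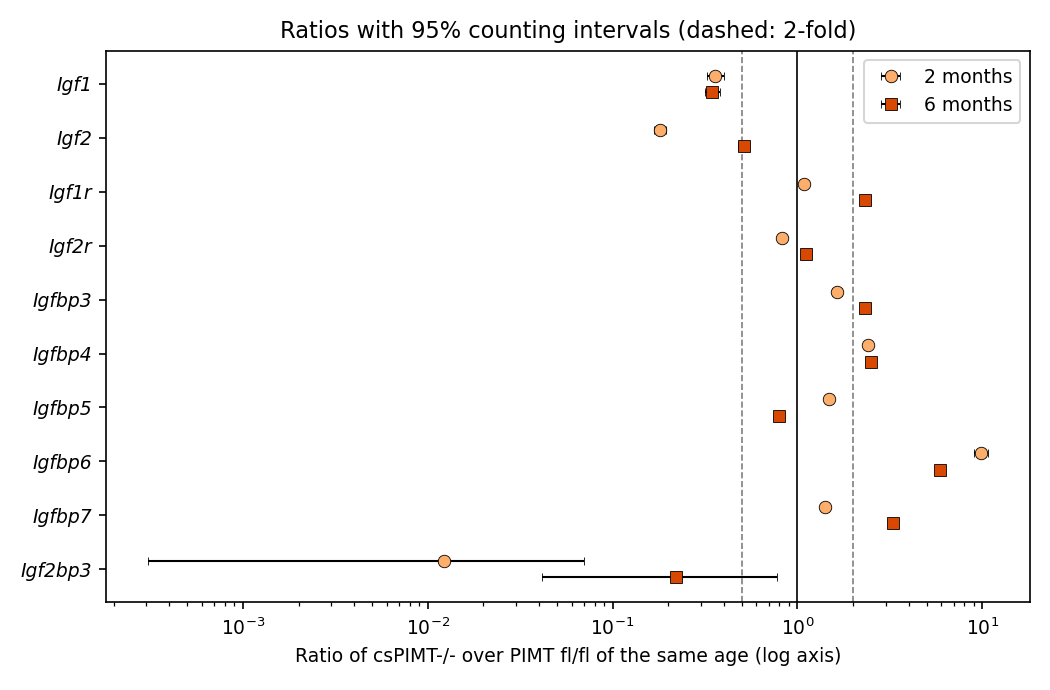
Ratio of csPIMT-/- over PIMT fl/fl of the same age (log axis) for the 10 genes; circles are 2 months, squares 6 months, bars are 95% counting intervals, and dashed lines mark 2-fold. Most bars are narrower than the symbols; *Igf2r* and *Igfbp5* lie on opposite sides of 1 at the 2 ages, and only *Igf2bp3*, with 1 and 3 reads in csPIMT-/- hearts, has a wide interval.

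*Igfbp6*, a binding protein with a preference for IGF2, had the largest log2 difference among the 9 family genes tested (chromosome 15, 102144362 to 102149511, plus strand). Its normalized count was 530 and 1054 in control and 5218 and 6215 in csPIMT-/- hearts. Both csPIMT-/- libraries lay far above both controls, and the 6-month control lay above the 2-month control by a ratio of 1.99 (95% interval 1.8 to 2.19). The ratio of csPIMT-/- over control was 9.84 (9.04 to 10.7) at 2 months and 5.9 (5.54 to 6.28) at 6 months. It rose by a log2 difference of 2.93 (SE 0.26, limma adjusted p = 0.016). No gene reached a smaller adjusted p, and others shared it, among them *Mmp3* and *Pik3ca*. After GC correction the ratios of *Igfbp6* were 5.85 and 3.42 and the log2 difference 2.16 (limma adjusted p = 0.095, which other genes shared as the smallest of that fit). The call was kept when each library was left out in turn.

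Several tissue markers moved with *Igfbp6* at 2 months. The summed count of 5 mesothelial and epicardial markers was 748 in the control and 2441 in the csPIMT-/- library, that of 5 white fat markers 10.4 and 12521, and that of 7 lung markers 1.73 and 1227. At 6 months these sums were 544 and 669, 2880 and 2136, and 11.4 and 19.8, beside the *Igfbp6* ratio of 5.9 at that age. In the mesothelial and epicardial list 4 of the 5 markers were more than 2-fold higher at 2 months (17.3% of all genes), and *Wt1* went the other way. It had 436 reads in the 2-month control and 89 in the 2-month csPIMT-/- library (ratio 0.291). The part of these markers in the result for *Igfbp6* was not tested. Of 9 macrophage markers found, 5 rose over both ages (11.0% of all genes) and none fell (17.5%). *Csf1r*, the most abundant, was among those that rose (limma adjusted p = 0.033). After GC correction its log2 difference was 0.53, down from 1.06 (limma adjusted p = 0.24). *Cd68*, *C1qa*, *C1qb* and *C1qc*, which also rose, then had 1.16, 0.81, 0.83 and 0.80 (limma adjusted p = 0.13 to 0.15). None of the 5 thus passed after this correction. The sum of the 9 markers was 14645 and 28593 in control and 36828 and 51663 in csPIMT-/- hearts.

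*Igfbp4* (chromosome 11, 99041244 to 99054392, plus strand), which mostly inhibits IGF action until it is cleaved, had normalized counts of 6204 and 4904 in control and 14887 and 12204 in csPIMT-/- hearts. The genotypes did not overlap, and within each genotype the 6-month library was the lower one. The ratio was 2.4 (95% interval 2.33 to 2.47) at 2 months and 2.49 (2.41 to 2.57) at 6 months. The log2 difference was 1.29 (SE 0.20, limma adjusted p = 0.019). Subtraction of the GC trend left ratios of 1.62 and 1.65 and a log2 difference of 0.72 (limma adjusted p = 0.13), and without the 6-month control the adjusted p was 0.076.

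*Igfbp3* (chromosome 11, 7206086 to 7213923, minus strand), the main carrier of IGF in blood, had normalized counts of 1552 and 1567 in control and 2532 and 3655 in csPIMT-/- hearts. The 2 controls could not be told apart within counting error, and both csPIMT-/- libraries were above them. The ratio was 1.63 (95% interval 1.53 to 1.74) at 2 months and 2.33 (2.2 to 2.47) at 6 months. The log2 difference of 0.96 (SE 0.23) had a limma adjusted p of 0.039. Corrected for GC it was 0.60 (limma adjusted p = 0.19). The adjusted p was 0.12 without either control library and 0.083 without the 6-month csPIMT-/- library.

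*Igfbp7* (chromosome 5, 77349240 to 77408041, minus strand), which binds IGF weakly and is made by vascular cells, did not pass the test. It had normalized counts of 10884 and 7985 in control and 15440 and 26328 in csPIMT-/- hearts, so the csPIMT-/- libraries were above both controls, with ratios of 1.42 (95% interval 1.38 to 1.45) at 2 months and 3.3 (3.22 to 3.38) at 6 months. The log2 difference was 1.11 (SE 0.34, limma adjusted p = 0.064). With TMM scaling the limma adjusted p was 0.049, with genotype alone in the model 0.044, and without a mean trend 0.15. The adjusted p was 0.0062 with DESeq2 and 0.064 with edgeR. The log2 difference was 1.498 without the 2-month and 0.73 without the 6-month csPIMT-/- library. Leaving out the 2-month or the 6-month control gave 1.34 and 0.89. With the GC trend subtracted the limma adjusted p was 0.50, and the 2-month ratio was then 0.866. The sum of 8 endothelial markers was 74583 and 56215 in control and 54839 and 61984 in csPIMT-/- hearts. Of the 8, 2, *Kdr* and *Tek*, fell (17.5% of all genes) and none rose (11.0%). With the GC trend subtracted their log2 differences went from -1.02 and -1.04 to -0.96 and -0.62 (limma adjusted p = 0.11 and 0.18). *Igfbp7* shares exonic sequence on the other strand with *Polr2b*.

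*Igfbp5* (chromosome 1, 72857932 to 72874884, minus strand), a matrix-bound binding protein, had normalized counts of 4107 and 4085 in control and 6082 and 3241 in csPIMT-/- hearts. The controls were the same within counting error and lay between the csPIMT-/- libraries. The ratio was 1.48 (95% interval 1.42 to 1.54) at 2 months and 0.793 (0.758 to 0.83) at 6 months, and the log2 difference over both ages was 0.12 (SE 0.28, limma adjusted p = 0.77).

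Per kilobase of the longest transcript, the summed level of the 5 binding protein genes was 12491 and 10209 normalized counts in control hearts of 2 and 6 months and 23503 and 32764 in csPIMT-/- hearts. *Igfbp7* made up 72.6% and 65.2% of that sum in controls and 54.7% and 67.0% in csPIMT-/- hearts. The share of *Igfbp6* was 3.82% and 9.28% in controls and 19.96% and 17.1% in csPIMT-/- hearts. The share of *Igfbp5* was lowest in the 6-month csPIMT-/- library, at 1.65%, against 4.31% to 6.66% in the other 3. On the same scale *Igf1* was at 214 and 222 normalized counts per kilobase in control and 77.1 and 77.3 in csPIMT-/- hearts, and *Igf2* at 1144 and 479 in control and 206 and 245 in csPIMT-/- hearts. The level of *Igf2* was thus above that of *Igf1* in each library.

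**Figure D3:**
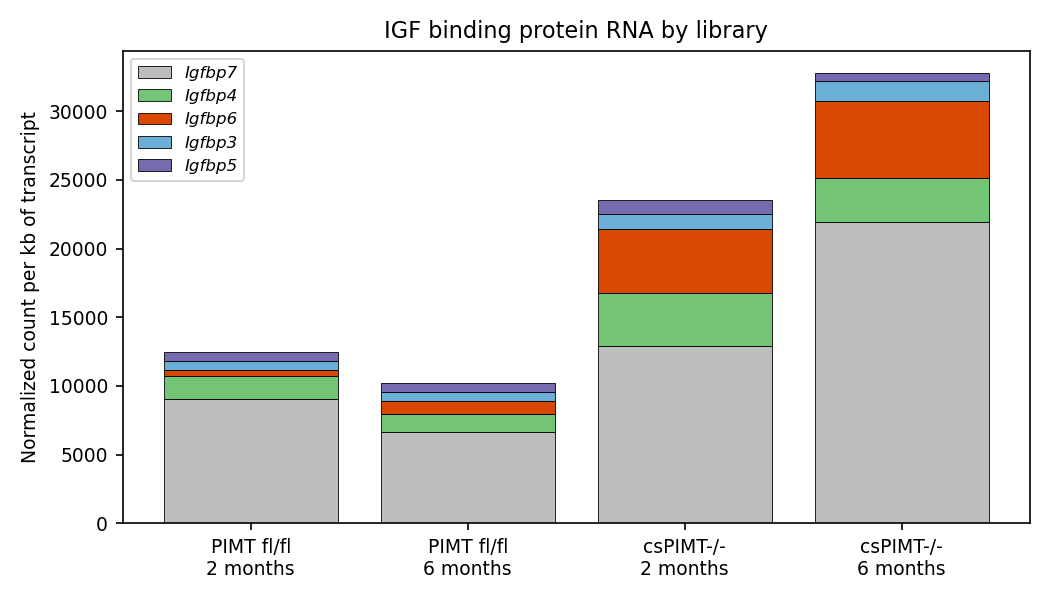
Normalized counts per kilobase of the longest transcript for the 5 binding protein genes, stacked by library (1 bar per pooled library, no replicates). The csPIMT-/- bars reach 23503 and 32764, the control bars 12491 and 10209, and the *Igfbp6* segment is 19.96% and 17.1% of the csPIMT-/- bars.

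*Igf2bp3* (chromosome 6, 49085223 to 49214957, minus strand), chosen for its 2-month ratio, had few reads. There were 116 and 16 in control hearts of 2 and 6 months and 1 and 3 in csPIMT-/- hearts. Most of the reads were thus in the 2-month control library alone, and the 6-month control was lower than it by a ratio of 0.14 (95% interval 0.0776 to 0.237). At 6 months, which the rule used for direction only, the ratio of csPIMT-/- over control was 0.222 (0.0414 to 0.775). The ratio of the 2-month csPIMT-/- library over the 6-month control was 0.0876. No test is given for this gene, and its exons overlap those of *Malsu1* on the other strand.

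The other RNA-binding paralogs and family genes were mostly rare in these hearts. *Igf2bp2*, the paralog that stays active in adult muscle, had 266 and 121 reads in control and 61 and 178 in csPIMT-/- hearts, with ratios of 0.327 at 2 months and 1.74 at 6 months (limma adjusted p = 0.66). *Igf2bp1* had 9 to 26 reads in any library. *Igfbp1* had 2 to 13 reads and *Igfbp2*, which lies next to *Igfbp5* on chromosome 1, 46 to 107, with ratios of 2.01 and 2.11 (limma adjusted p = 0.14). *Igfbpl1*, an IGF binding protein-like gene, had 101 and 91 reads in control and 23 and 3 in csPIMT-/- hearts (limma adjusted p = 0.056). *Igfals*, whose product stabilizes the complex of IGF and IGFBP3 in blood, had 22 and 309 reads in control and 69 and 44 in csPIMT-/- hearts. *Insr*, the insulin receptor, was well expressed, with 11897 and 15439 reads in control and 7636 and 11622 in csPIMT-/- hearts, and ratios of 0.914 and 0.891 (limma adjusted p = 0.60). The related *Insrr* had 1 to 8 reads and *Ins2* none in any library. *H19*, the non-coding RNA next to *Igf2* that shares its imprinting control region, had 8947 and 4599 reads in control and 2273 and 3913 in csPIMT-/- hearts, with ratios of 0.362 and 1.01 (limma adjusted p = 0.20). In all, 1 of the 10 of these 12 genes that could be tested, *Airn*, fell (17.5% of all genes) and none rose (11.0%).

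Among the enzymes that cleave IGF binding proteins and their inhibitors, 3 of 11 tested genes rose (11.0% of all genes) and none fell (17.5%). *Mmp3*, stromelysin, had 62 and 235 reads in control and 412 and 1551 in csPIMT-/- hearts, with ratios of 9.47 and 7.81 and a log2 difference of 3.09 (SE 0.31, limma adjusted p = 0.016). The serine protease *Htra3* had ratios of 2.17 and 2.57 (log2 difference 1.24, limma adjusted p = 0.021), and the lysosomal protease *Ctsd* ratios of 2.41 and 2.1 (log2 difference 1.17, limma adjusted p = 0.032). Subtraction of the GC trend left log2 differences of 0.48 and 0.55 for these 2 genes (limma adjusted p = 0.21 and 0.24). *Pappa*, the protease that cleaves IGFBP4, had 150 and 180 reads in control and 113 and 340 in csPIMT-/- hearts, with a log2 difference of 0.63 (limma adjusted p = 0.30). The median log2 difference of this list was 0.57, beside 0.03 over all genes tested.

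Downstream of the receptors, 17 genes of 4 signalling lists fell and 4 rose. Of the receptor adaptors 5 of 14 tested fell and none rose, of PI3K, Akt and phosphatase genes 5 of 15 fell and none rose, of mTOR genes and Akt substrates 3 of 18 fell and 2 rose, and of Ras-MAPK genes 4 of 12 fell and 2 rose, with 17.5% and 11.0% of all genes called in these directions. Median log2 differences of the 4 lists were -0.66, -0.37, 0.38 and -0.18. *Irs1*, the docking protein of the receptor, had a log2 difference of -1.002 (limma adjusted p = 0.033). It and *Pik3r1*, which fell, and *Akt1s1*, *Map2k2* and *Mapk3*, which rose, are named although the naming rule picked none of them. They were picked after their values were seen, as were the markers named beside the most abundant of their list. *Sos1*, which activates Ras, had ratios of 0.263 and 0.346. *Pik3ca*, the catalytic subunit of PI3K, had ratios of 0.31 and 0.226 (log2 difference -1.92, SE 0.23, limma adjusted p = 0.016). *Rps6kb1*, the ribosomal S6 kinase, had ratios of 0.201 and 0.216. *Eif4ebp1*, a translation repressor that mTOR inactivates, rose, with ratios of 1.67 and 3.42 (log2 difference 1.26, limma adjusted p = 0.039).

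Among the genes of these lists that fell and that the naming rule picked, 12, namely *Rasa1*, *Sos1*, *Sos2*, *Crk*, *Pik3ca*, *Pik3r3*, *Rictor*, *Rheb*, *Rps6kb1*, *Nras*, *Braf* and *Rps6ka3*, had transcripts of 39.2% to 44.7% GC. Their log2 differences of -2.26 to -1.18 were -0.85 to -0.03 after the GC trend was subtracted, a fit in which no gene of any kind passed the test. *Irs1*, at 50.3% GC, had -1.08 in that fit (limma adjusted p = 0.11). *Pik3r1*, at 44.9% GC, went from -0.93 to -0.155 (limma adjusted p = 0.63). Of the genes that rose, *Mmp3* had a log2 difference of 3.71 there and *Eif4ebp1* one of 1.51 (limma adjusted p = 0.095 and 0.11). Those of *Akt1s1*, *Map2k2* and *Mapk3* became smaller, from 1.14, 0.84 and 0.85 to 0.38, 0.09 and 0.16.

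GC content and the ratio went together over all genes. Across 14976 genes at 2 months and 15040 at 6 months, Spearman's rho between the GC content of the longest transcript and the log2 ratio was 0.58 and 0.61, and between the controls of the 2 ages it was -0.27. These are correlations across genes within pairs of libraries, and genes are not independent. The trend at the GC content of *Igf1* was -1.62 and -1.69 on the log2 scale, against observed log2 ratios of -1.47 and -1.52. For *Igfbp6* (60.7% GC) it was 0.75 and 0.79, against 3.30 and 2.56, and for *Igf2* 0.62 and 0.63, against -2.47 and -0.97. For *Igf1* the observed ratio was thus at the level of other genes of its GC content, and for *Igf2* it was on the other side of 1 from the trend. What sets the trend was not tested.

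**Figure D4:**
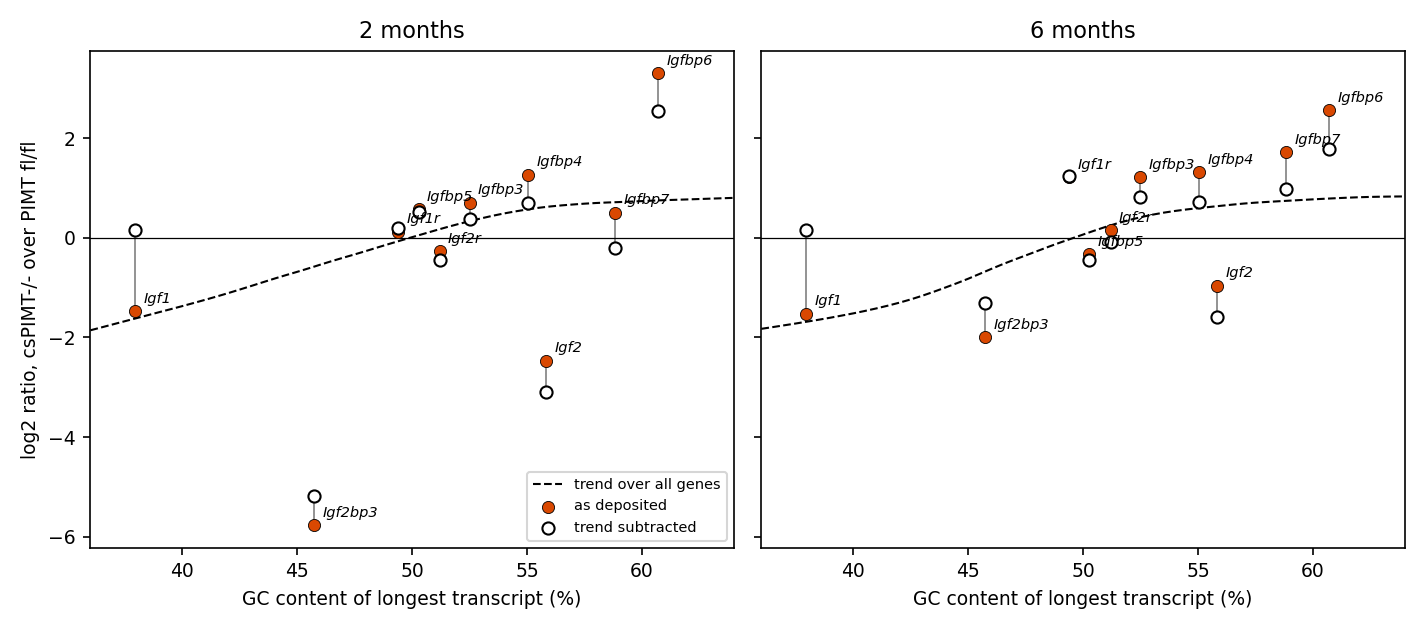
log2 ratio of csPIMT-/- over PIMT fl/fl at 2 months (left) and 6 months (right) against the GC content of the longest transcript; filled points are the ratios as deposited, open points those with the trend subtracted, and the dashed line is the trend over all genes. *Igf1*, at 37.96% GC, lies close to the trend and moves to 0.15 and 0.16, while *Igfbp6* and *Igf2* stay away from 0.

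The check of tissue identity held for heart muscle in each library. The sum of 8 cardiomyocyte markers, led by *Myh6*, was between 1204110 and 1567993 normalized counts. Of the 8, 1, *Pln*, fell (17.5% of all genes). With the GC trend subtracted the log2 difference of *Pln* went from -1.66 to -0.08 (limma adjusted p = 0.87). Atrial markers differed widely, with sums of 40736 and 114957 in control and 325567 and 348345 in csPIMT-/- hearts, of which *Nppa*, a marker of heart failure as well as of atrium, was the largest and rose (limma adjusted p = 0.016). The others, *Myl7*, *Myl4* and *Sln*, had ratios of 41.05, 49.9 and 97.3 at 2 months but 0.467, 0.795 and 0.4215 at 6 months. All were lowest in the 2-month control, where *Sln* had 150 reads, against 4544 in the 6-month control and 10243 and 1619 in csPIMT-/- hearts. Smooth muscle and pericyte markers summed to 56763 to 95844, brown fat markers to 1108 to 4356 and liver markers to 1969 to 8905. Of the 8 smooth muscle and pericyte markers 3 were more than 2-fold higher at 2 months (17.3% of all genes) and 1, *Rgs5*, more than 2-fold lower (22.5%). With the GC trend subtracted the log2 difference of *Rgs5* over both ages went from -1.34 to -0.01. Ratios at 2 and 6 months were 12.9 and 0.831 for *Cnn1*, 5.16 and 1.045 for *Tagln*, 2.565 and 0.5645 for *Myh11*, and 0.404 and 0.387 for *Rgs5*. Of 5 blood markers 4 were listed at 0 in every library and *Alas2* alone gave 2313 to 12283. The part of these differences in the results for the IGF genes was not tested.

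**Figure D5:**
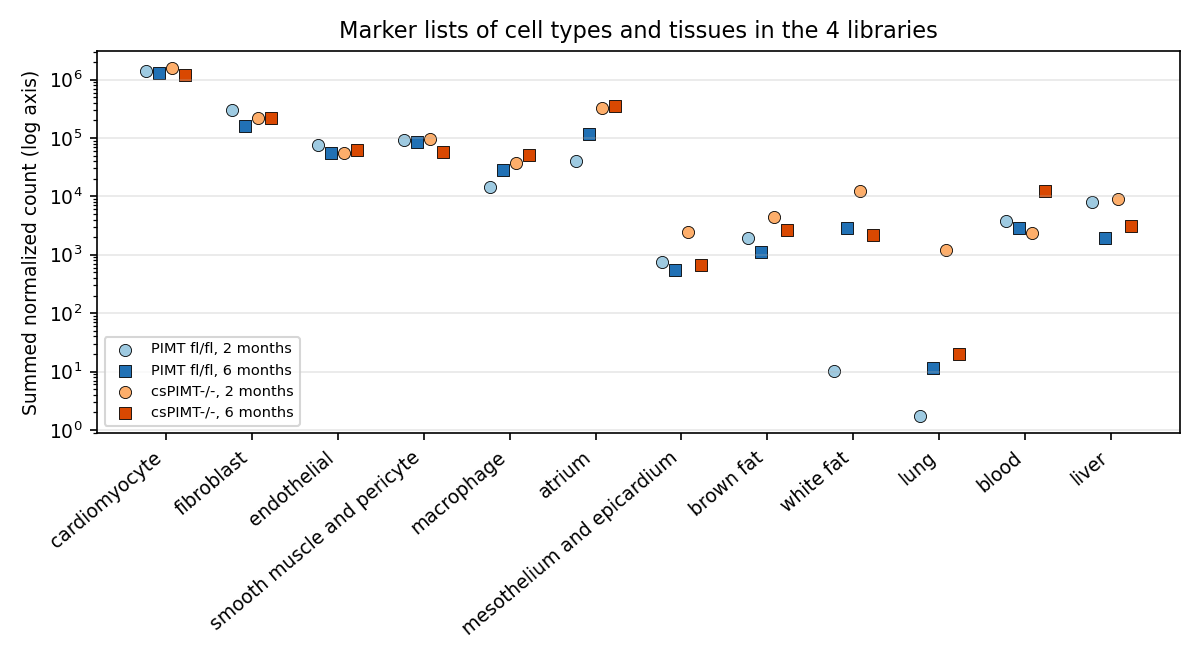
Summed normalized counts (log axis) of marker lists for cell types and tissues in the 4 libraries; circles are 2 months, squares 6 months, blue is PIMT fl/fl and orange csPIMT-/-. Cardiomyocyte sums are alike in all libraries (1204110 to 1567993), whereas white fat runs from 10.4 in the 2-month control to 12521 in the 2-month csPIMT-/- library and lung from 1.73 to 1227.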

How the data were processed

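RNA of 5 hearts per group was pooled, and 1 poly(A)-selected library per pool was sequenced as single reads of 50 bases. The authors trimmed and filtered the reads, mapped them with STAR to mm10 and obtained gene counts from htseq-count (HTSeq 0.6.1p1 in the submitters' processing notes) on UCSC gene models, with DESeq2 for normalization and testing. The deposited values are normalized counts, a signal of gene counts divided by a size factor per library. The 6-month csPIMT-/- column is headed as read counts but is normalized like the rest. In each library 100% of values were whole multiples of the smallest value above 0 (tolerance 1e-06 reads), which gave the reads back. Only the reads entered the count tests, which were alternatives.

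Ratios were taken from the deposited values where either library had 10 or more reads, without a test, as each group had 1 library. limma 3.58.1 was fitted to log2(value + 1) of genes with at least 10 normalized counts in at least 2 libraries, with genotype and age and a mean trend of the variance, and was tested on simulated data. Fold changes on this scale understate those of low genes. edgeR 4.0.16 and DESeq2 1.42.0 (both on recovered reads), TMM scaling, other pseudocounts and filters, other controls and a lowess GC trend (span 0.3) were alternatives, as was leaving out each library. GC content, length and coordinates came from GENCODE M21 (GRCm38), with a value for 98.8% of genes compared, and promoters from RefSeq.

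The 10 genes and all lists were chosen with earlier results of these data known. Named beside them were *Tgs1*, every other IGF family gene listed, and in each pathway list up to 4 genes with the largest log2 difference among genes reaching 100 reads whose ratios lay on 1 side of 1, and of each marker list its sum and most abundant gene. A few genes that this rule picked are not reported here by name. No sequencing batch is given in the labels.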

Additional observations from a re-analysis of the deposited data

Results flagged for a closer look

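Ratios of csPIMT-/- over control lay on opposite sides of 1 at 2 and 6 months for 7 of the IGF and imprinted genes. Each of these ratios had a counting interval that excluded 1. *Igf2bp3* and the pathway genes picked by the naming rule were chosen with ratios on the same side of 1. They could not be among these 7 genes. Over all 181 genes listed, with the other pathway and marker genes, 38 met both conditions. The listed genes were picked by hand, so this is no background share, and the share over all genes is not given here. The difference between the ages was not tested, since each age had 1 library per genotype. Of the members, *Igf2r* had ratios of 0.826 and 1.11 and *Igfbp5* of 1.48 and 0.793. Of the other IGF family genes, *Igfals* had ratios of 4.47 and 0.168 and *Igf2bp2* of 0.327 and 1.74. Of the imprinted genes listed after their values were seen, *Cdkn1c* had ratios of 0.869 and 1.79, *Peg10* of 0.475 and 3.76, and *Gnas* of 0.898 and 1.60.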

How the results depend on the processing

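With 1 library per group no replicate could be left out within a group, and p-values rest on how far the 4 libraries depart from a sum of genotype and age effects. No paired analysis was possible because each group had 1 library and the labels carry no replicate numbers. Subtracting the GC trend moved the genes more than 2-fold lower from 3405 to 1722 at 2 months and from 3794 to 1984 at 6 months, moved the IGF genes more than 2-fold higher from 2 to 1 and from 5 to 2, and turned *Igf1*, whose ratios became 1.11 and 1.12 and whose log2 difference became 0.14. Requiring 100 reads left 1724 of 2616 genes more than 2-fold higher at 2 months, and 1 of the 10 IGF genes more than 2-fold lower at 6 months, since *Igf2bp3* then could not be counted. In the fit over both ages 2595 genes were lower and 1637 higher, among them 2 and 3 of the 9 IGF genes tested. Without a mean trend, and with the GC trend subtracted, these counts were 0 and 0 over all genes and 0 and 0 of the IGF genes. When each library was left out in turn with genotype alone in the model, an alternative chosen after seeing the data in which the genotype left with 1 library is assumed to vary like the other, the counts ran from 366 (without the 6-month control) to 1882 lower and from 274 (without the 2-month control) to 1082 higher over all genes, from 1 to 1 lower and from 1 to 5 higher among the IGF genes. The log2 difference of *Igf2r* ran from -0.21 to 0.09, being 0.0020 without the 2-month control and 0.093 without the 2-month csPIMT-/- library, and that of *Igfbp5* from -0.34 to 0.57 in these fits. Of the counts under all alternatives, 94 stayed within 1.5 times the reported count and 26 did not. *Igfbp6* stayed past the threshold in 12 of 14 alternatives, *Igf1* and *Igfbp4* in 11, and *Igf2* and *Igfbp3* in 9.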

Other observations

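*Igf2* belongs to a group of imprinted genes that are active in the fetus and decline together after birth. A list of 12 others of this kind was written after values for some of them had been seen, and is a description. Of the 11 that could be tested 3 fell in csPIMT-/- hearts (17.5% of all genes) and none rose (11.0%). The ratio of csPIMT-/- over control was below 1 for 10 of 12 genes at 2 months (50.1% of all genes), with a median of 0.423. At 6 months it was below 1 for 5 of 11 and above 1 for 6, with a median of 1.006. *Mest*, a hydrolase gene, had 2735 and 1307 reads in control and 277 and 232 in csPIMT-/- hearts (limma adjusted p = 0.016). *Peg3*, a zinc finger gene, had 3330 and 2452 reads in control and 871 and 1256 in csPIMT-/- hearts (limma adjusted p = 0.040), and its neighbour *Zim1* 92 and 95 in control and 16 and 17 in csPIMT-/- hearts (limma adjusted p = 0.047). The non-coding RNA *Meg3* had 811 and 544 reads in control and 149 and 274 in csPIMT-/- hearts (limma adjusted p = 0.059). After subtraction of the GC trend the log2 differences of *Mest*, *Peg3* and *Zim1* went from -2.52, -1.07 and -2.07 to -2.14, -0.61 and -0.92 (limma adjusted p = 0.095, 0.23 and 0.315). Between the controls, 9 of the 12 genes were lower at 6 than at 2 months, as 42.9% of all genes were, and the median ratio was 0.666. *Ndn*, another imprinted gene of this list, had 1115 and 595 reads in control and 1162 and 772 in csPIMT-/- hearts (limma adjusted p = 0.12).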
